A study of Mus musculus with 6 samples.

Results

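The 5 long noncoding RNAs described here are Malat1, Neat1, Tug1, Miat and 2900097C17Rik, the gene that RefSeq (GRCm38.p6) lists as Norad. They were chosen by name, and all 5 have a row among the 23229 annotated genes of the count tables, which also hold 2381 regions assembled by the authors, and in the RPKM table. RNA was sequenced from mature sperm of adult C57BL/6 mice of the transgenic line HP3.1, aged 4 months, taken from the cauda epididymis and vas deferens. All 3 preparations carry that transgene, so no group without it was compared. Sperm nuclei, freed by sonication and pelleted through sucrose, gave 2 preparations (nuclei 1 and nuclei 2), and whole sperm gave 1. Each preparation was sequenced in 2 runs, which were treated as combined in 1 column, and the labels do not tie preparations to animals. The p-values therefore measure only the spread between these preparations, which may be technical, and whole sperm has no replicate.

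Malat1 is a long, mostly unspliced nuclear RNA that gathers in nuclear speckles, bodies rich in splicing factors. Its 3′ end is made by RNase P, which cuts off a small tRNA-like RNA, and is protected by a triple helix in place of a poly(A) tail. Neat1 is the scaffold of paraspeckles, nuclear bodies that form around its long form; a short form that shares its start is polyadenylated instead. Tug1 is found in nucleus and cytoplasm, and its locus is needed for male fertility in mice. Miat stays in the nucleus and carries repeats that bind the splicing factor SF1, and Norad is largely cytoplasmic and binds Pumilio proteins. Mature sperm have condensed chromatin and are regarded as transcriptionally silent.

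The sequences that set these RNAs apart are shown first, taken from GENCODE vM21 transcripts (GRCm38, the assembly of mm10; all on the minus strand), since the counts below are of reads from these transcripts. For Malat1 (bases 6558 to 6691 of 6983, chr19:5795982-5796115) and the long form of Neat1 (bases 20632 to 20771 of 20771, chr19:5824708-5824847), capitals mark the 3 words that both 3′ ends share. They are the U-rich and A-rich stretches known to fold into the triple helix.
Malat1: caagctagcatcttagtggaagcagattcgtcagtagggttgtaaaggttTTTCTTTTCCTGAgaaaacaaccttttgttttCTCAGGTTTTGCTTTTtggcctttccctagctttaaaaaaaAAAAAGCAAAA
Neat1 long form: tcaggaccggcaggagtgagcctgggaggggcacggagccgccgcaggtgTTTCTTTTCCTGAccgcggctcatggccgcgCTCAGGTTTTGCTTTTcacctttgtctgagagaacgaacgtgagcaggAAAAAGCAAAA
The words TTTCTTTTCCTGA, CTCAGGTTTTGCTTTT and AAAAAGCAAAA occurred in the last 400 bases of 0.00423%, 0.00141% and 0.107% of 141767 transcripts. All 3 occurred together in 2 transcripts, Malat1-201 and Neat1-201.

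The end of the short form of Neat1 (bases 2955 to 3004 of 3004, chr19:5842307-5842356) is shown because it separates the forms, and capitals mark its AATAAA polyadenylation signal.
Neat1 short form: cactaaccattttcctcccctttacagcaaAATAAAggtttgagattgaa
AATAAA was found in the last 40 bases of 25.8% of all transcripts, and in that window in Malat1, the short form of Neat1, Tug1 and 2900097C17Rik, but not in Miat or the long form of Neat1. The annotated Malat1 transcript runs 292 bases past the stretch printed above, whereas that of the long form of Neat1 stops with its printed stretch. Their windows therefore lie at unlike ends.

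In 2900097C17Rik (bases 2422 to 2478 of 4915, chr2:156390502-156390558) capitals mark the closest pair of Pumilio elements, the sites for which Norad is known.
2900097C17Rik: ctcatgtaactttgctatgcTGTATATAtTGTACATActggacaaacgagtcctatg
The element TGTANATA, searched on the transcript strand, occurred 11 times in 2900097C17Rik (2.24 per kb), 1 time in Miat, 4 times in the long form of Neat1 and 0 times in Malat1, the short form of Neat1 and Tug1. Of 13097 transcripts of at least 4000 bases, 46.3% held at least 1 and 0.0229% held at least as many per kb as 2900097C17Rik. That share includes the 2900097C17Rik transcript itself.

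In Miat (bases 4605 to 4704 of 8758, chr5:112217284-112217383) capitals mark the densest run of ACTAAC, the branch-point-like repeat that SF1 binds.
Miat: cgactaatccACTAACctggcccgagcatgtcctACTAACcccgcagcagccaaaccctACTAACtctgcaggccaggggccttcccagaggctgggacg
Miat held 11 ACTAAC elements (1.26 per kb), the long form of Neat1 held 4, its short form and Tug1 held 1 each, and Malat1 and 2900097C17Rik held 0. At least 1 was found in 45.2% of the transcripts of at least 4000 bases, and at least as many per kb as in Miat in 0.0229%, Miat itself included.

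The RNAs differ in build as well. Malat1 (19:5795690-5802672), 2900097C17Rik (2:156388065-156392979) and the long form of Neat1 (19:5824708-5845478) have 1 exon each, with lengths of 6983, 4915 and 20771 bases. The short form of Neat1 (19:5842307-5845476) has 2 exons and 3004 spliced bases, Tug1 (11:3639794-3648812) has 4 exons and 4720 bases, and Miat (5:112213230-112228948) has 7 exons and 8758 bases. Malat1 and Neat1 are neighbours, with 22035 bases between them. The strand setting of the authors' counting is not given in the sources used here. Reads of Malat1 and Miat therefore cannot be told apart from those of genes annotated across them on the opposite strand (Gm37376 and Gm26953). The same holds for Tug1 and Morc2a only where the GENCODE gene span of Tug1 (11:3639785-3649673), wider than the transcript given here, meets Morc2a. In RefSeq, 374 bases lie between Tug1 and Morc2a. Counting both strands, 2, 3, 5 and 5 GENCODE genes overlap Malat1, Neat1, Tug1 and Miat, and 0 overlap 2900097C17Rik. Reads of those on the same strand could not be told apart by any strand setting.

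Gene and region counts came to 5487306, 6648848 and 8316345 in nuclei 1, nuclei 2 and whole sperm. The 15 spermatid markers, transcripts that mature sperm keep from their last stage of transcription, all had counts in every library and summed to 0.518%, 0.527% and 0.310% of counts. Markers of Sertoli and Leydig cells were mostly at 0 (8, 9 and 9 of 11).

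By gene row, Malat1 led the 5 RNAs in every library and was higher in whole sperm than in either nuclei library. The Neat1 row, which covers only its short form, was higher in nuclei 1 than in the other libraries, which were level. For nuclei 1, an assembled region of the long Neat1 form (region A below) had more counts than Malat1, at 10535 against 8178. Tug1 and 2900097C17Rik, like Malat1, were higher in whole sperm, and Miat was counted only in nuclei. Compared per length, in the deposited RPKM (reads scaled by gene length and by mapped reads), the mean over nuclei fell in the order Malat1 (75.3 ± 9.62 RPKM, SD, n = 2), Neat1 (39.7 ± 18.0 RPKM), Tug1 (2.59 ± 0.532 RPKM), 2900097C17Rik (0.415 ± 0.468 RPKM) and Miat (0.214 ± 0.129 RPKM). The nuclei values of the last pair overlapped, and those of each other pair of neighbours in that order did not. In whole sperm the RPKM order was Malat1 (454), Neat1 (33.9), 2900097C17Rik (6.78), Tug1 (6.47) and Miat (0.0350), with no replicate to set a spread.

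**Figure D1:**
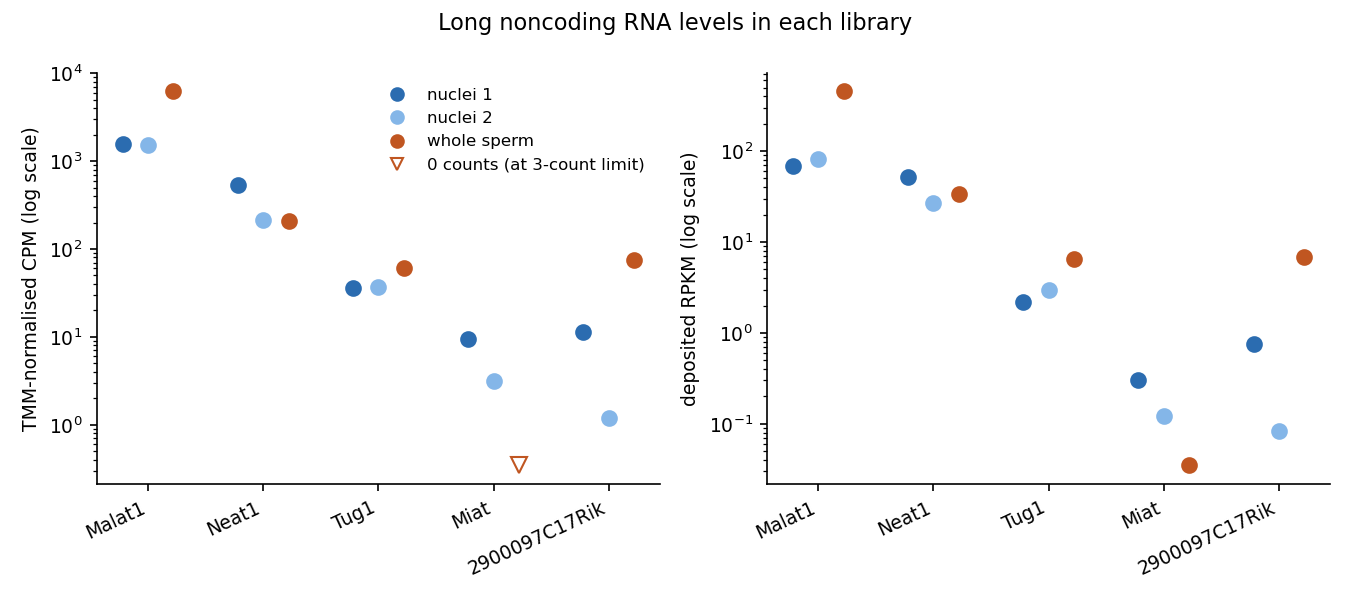
Level of each long noncoding RNA in each library as TMM-normalised CPM (left) and deposited RPKM (right), both on log axes; each point is 1 library, and the open triangle marks the CPM that 3 counts would give where Miat had 0 counts. Malat1 is the highest point in every library, and its whole-sperm value lies above both nuclei values on either scale.

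None of the 5 passed edgeR's quasi-likelihood test with Benjamini-Hochberg adjustment over 16720 features at 0.05, a test that called 0.0658% of features higher and 0.0957% lower in nuclei. Unadjusted, 3.77% of features were higher and 2.07% lower at that threshold, and Malat1 and 2900097C17Rik were among the lower ones. In limma's test on log2(RPKM + 0.1), which called 0 of 18448 features in either direction (unadjusted, 269 or 1.46% were higher and 2103 or 11.4% lower, Malat1 among them), none of the 5 passed either. The exact permutation of 2 libraries against 1 cannot go below p = 0.333, so single values have no test beyond these fits.

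**Figure D2:**
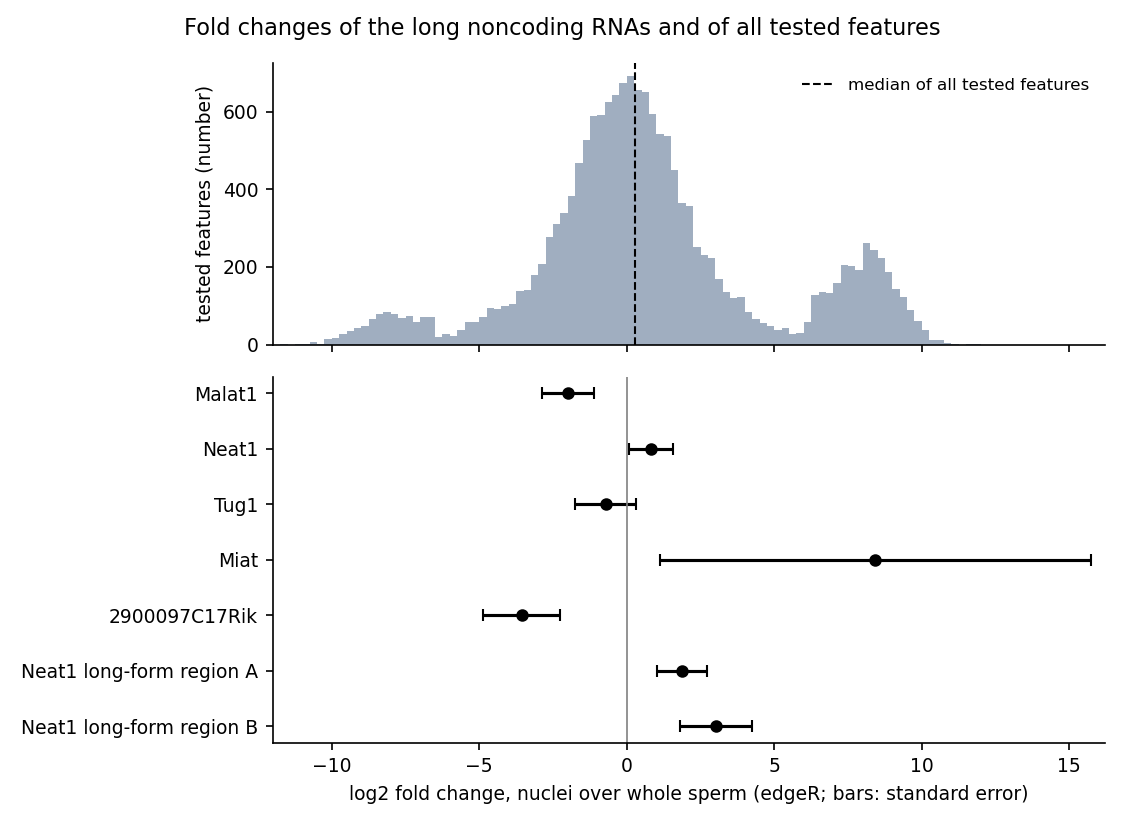
Top, log2 fold changes (nuclei over whole sperm, edgeR) of all 16720 tested features with their median (0.27, dashed); bottom, the 5 long noncoding RNAs and the 2 assembled regions of the long Neat1 form (A and B), with bars for the standard error. Malat1 at -2.00 and 2900097C17Rik at -3.57 lie left of 0, and the bar of Miat, which had 0 counts in whole sperm, spans most of the right side.

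The counts of Malat1, the speckle RNA, were 8178 (nuclei 1), 10237 (nuclei 2) and 53685 (whole sperm). Scaled with TMM, a factor that aligns the bulk of features between libraries, these were 1561, 1535 and 6200 CPM, a count scaled to a common library size. The nuclei libraries were nearly level with each other, and whole sperm stood well above both.

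Whole sperm had 4.01-fold more Malat1 CPM than the nuclei mean (1548 ± 18.4 CPM, SD, n = 2), and 3.97-fold and 4.04-fold more than each nuclei library. The log2 fold change of nuclei over whole sperm was -2.00 ± 0.886 (SE), and edgeR's adjusted p was 0.666. Among all features tested, 18.6% had a lower log2 fold change. In RPKM, Malat1 was at 68.5, 82.1 and 454, a log2 difference of -2.60 with an adjusted p of 0.263 in limma. Both scales put whole sperm above nuclei. The median log2 value of all features was 0.27 in the edgeR fit and -0.59 in RPKM. Relative to these medians Malat1 lay at -2.27 and -2.01, so the larger RPKM value is no stronger difference.

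The share of Malat1 in all counts, with its exact Clopper-Pearson 95% interval, was 0.149% (0.146 to 0.152) for nuclei 1, 0.154% (0.151 to 0.157) for nuclei 2 and 0.646% (0.640 to 0.651) for whole sperm. PCR copies cannot be recognised in these tables, so all such intervals allow for counting error alone. By CPM, which is not scaled by length, Malat1 ranked 17 of 13897 detected genes for nuclei 1, 42 of 12259 for nuclei 2 and 4 of 14630 for whole sperm. Its ranks by RPKM were lower, at 120 of 14176, 188 of 12475 and 17 of 15113. The nuclei still held it among their most abundant genes.

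The call on Malat1 changed with the model and the scaling. DESeq2 gave log2 -1.96 with an adjusted p of 0.00636, in a fit that called 0.403% of features lower. Scaling edgeR by the ERCC spike-ins, synthetic RNAs added to the libraries in amounts not given in the sources used here, gave log2 -3.44 with an adjusted p of 0.000422, and 3.26% of all features were then called lower. That scaling moved the median log2 fold change of all features by -1.43. Relative to that median, Malat1 lay at -2.27 under TMM and at -2.27 under spike-in scaling. A change of scaling moves most features by nearly the same amount, so these equal values follow from the scaling and add no evidence. Over the alternatives with a test its adjusted p ran from 0.000422 to 0.849, and its log2 fold change stayed below 0 in each of them.

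Few abundant features were as even between the nuclei libraries as Malat1. Its CPM differed by a log2 ratio of 0.02. Over 1027 features with a nuclei mean of at least 100 CPM, the median absolute log2 ratio was 0.59, a 1.51-fold difference, and 30 features (2.92%) had a smaller one than Malat1. On the RPKM scale its nuclei values lay further apart.

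Most tested markers of epididymal epithelium, epithelial junctions and leukocytes, the last at low counts, had more CPM in whole sperm, like Malat1. Few of them passed the test. Markers of smooth muscle and stroma were split, and those of spermatids leaned the other way. In these bulk samples fewer cells of a type and less RNA per cell cannot be told apart. The 23 markers of epididymal epithelium summed to 0.285% and 0.302% of counts in nuclei and 1.83% in whole sperm, with 7, 9 and 8 of them at 0. Of 15 tested, 12 had log2 fold changes below 0, with a median of -2.06 against 0.27 over all features, and edgeR called 2 lower and 0 higher in nuclei.

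Those 2 were Crisp1, a secreted sperm-coating protein gene, at 488, 525 and 6452 CPM (adjusted p = 0.0241), and Spink10, of a protease inhibitor family, at 43.9, 29.5 and 361 CPM (adjusted p = 0.0158). Akr1b7, a vas deferens aldose reductase gene, was at 817, 836 and 5560 CPM, and Cd52, which encodes a sperm surface antigen added in the epididymis, at 678, 750 and 1757 CPM. As for Malat1, each of these 4 genes was higher in whole sperm than in both nuclei libraries.

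Epithelial junction markers summed to 0.0161%, 0.0205% and 0.0778% of counts, and 13 of 14 tested were below 0 (median -1.81). The claudin gene Cldn8 was at 17.2, 6.75 and 157 CPM (edgeR adjusted p = 0.0416), the cadherin gene Cdh1 at 19.1, 20.4 and 122 CPM, and the keratin gene Krt19 at 13.5, 41.4 and 70.5 CPM. Leukocyte markers were near 0, at 0.00394%, 0.00167% and 0.00836% of counts, with 10, 8 and 3 of 17 at 0. Of 11 tested, 10 were below 0 (median -2.05) and edgeR called 0 (Cd74 16.98, 0.300 and 22.5 CPM, Itgam 14.3, 3.90 and 2.08 CPM, Cd4 0, 2.998 and 11.9 CPM).

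Smooth muscle and stroma markers were split, with 7 of 14 tested below 0, a median of -0.62 and 0 called. Myh11, a smooth muscle myosin gene, was at 30.7, 40.5 and 9.47 CPM, higher in both nuclei libraries, while the collagen gene Col3a1 was at 25.6, 2.70 and 44.7 CPM and Col1a1 at 40.1, 20.4 and 3.12 CPM. Spermatid markers leaned the other way, with 11 of 15 above 0 and a median of 0.90, and edgeR called 0 of them. Tnp1 and Tnp2, the transition protein genes, were at 1451, 802 and 574 CPM and at 1032, 1417 and 304 CPM, and Smcp, of the sperm mitochondrial capsule, at 431, 413 and 606 CPM. The part of these cell markers in the Malat1 values was not tested.

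Neat1, the paraspeckle scaffold, did not share the pattern of its neighbour. Reads on its gene row numbered 2773 (nuclei 1), 1437 (nuclei 2) and 1821 (whole sperm), or 529, 215 and 210 CPM. Nuclei 1 stood apart from the other 2 libraries, which were level, and whole sperm lay just below the lower nuclei value.

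The nuclei mean was 372 ± 222 CPM (SD, n = 2). The log2 fold change was 0.82 ± 0.756 (SE; edgeR adjusted p = 0.909), with 1.33 if only nuclei 1 is used and 0.03 if only nuclei 2 is. Its sign turned under spike-in scaling, at -0.60 (edgeR adjusted p = 0.801). Relative to the median of all features it was 0.56 under either scaling, which again follows from the scaling.

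In RPKM, Neat1 was at 52.4, 27.0 and 33.9, so whole sperm lay between the nuclei libraries. The log2 difference was 0.15 (limma adjusted p = 0.917), against a median of -0.59 over all features. The nuclei libraries differed 2.46-fold in Neat1 CPM, and 84.1% of the 1027 abundant features differed less. By CPM, Neat1 ranked 119, 499 and 301 in the 3 libraries, and by RPKM 184, 702 and 574.

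The gene row covers only the short form. Counts per RPKM implied a row length of 3095, 2982 and 3173 bases in the 3 libraries, near the 3004 bases of the short form and far from the 20771 of the long one. Beyond the short form the authors' assembly placed 2 regions inside the long transcript, region A (TCONS_00020362, 19:5826195-5832590, 6396 bases) and region B (TCONS_00020834, 19:5824720-5826069, 1350 bases). They cover 7746 of the 17599 bases that only the long form has, which is 44.0%. Region B reaches into the 3′ end printed above. Which libraries were used for the assembly is not given in the sources used here.

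Region A had 10535, 2561 and 2850 counts, or 2010, 384 and 329 CPM in nuclei 1, nuclei 2 and whole sperm. Region B had 662, 43 and 71 counts, or 126, 6.45 and 8.20 CPM. Both repeated the order of the gene row for nuclei 1, which was the highest library, and in region B nuclei 2 was the lowest.

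The log2 fold change was 1.86 ± 0.847 (SE) for region A and 3.01 ± 1.21 for region B, with edgeR adjusted p-values of 0.682 and 0.543. From nuclei 2 alone they were 0.22 and -0.34, against 2.61 and 3.94 from nuclei 1 alone. Nuclei 1 exceeded nuclei 2 by 5.24-fold in region A and 19.6-fold in region B, and 98.8% of the 1027 abundant features differed less than region A. With both regions added to the Neat1 row, a sum chosen after the values were seen, the log2 fold change was 1.58 (edgeR adjusted p = 0.909).

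**Figure D3:**
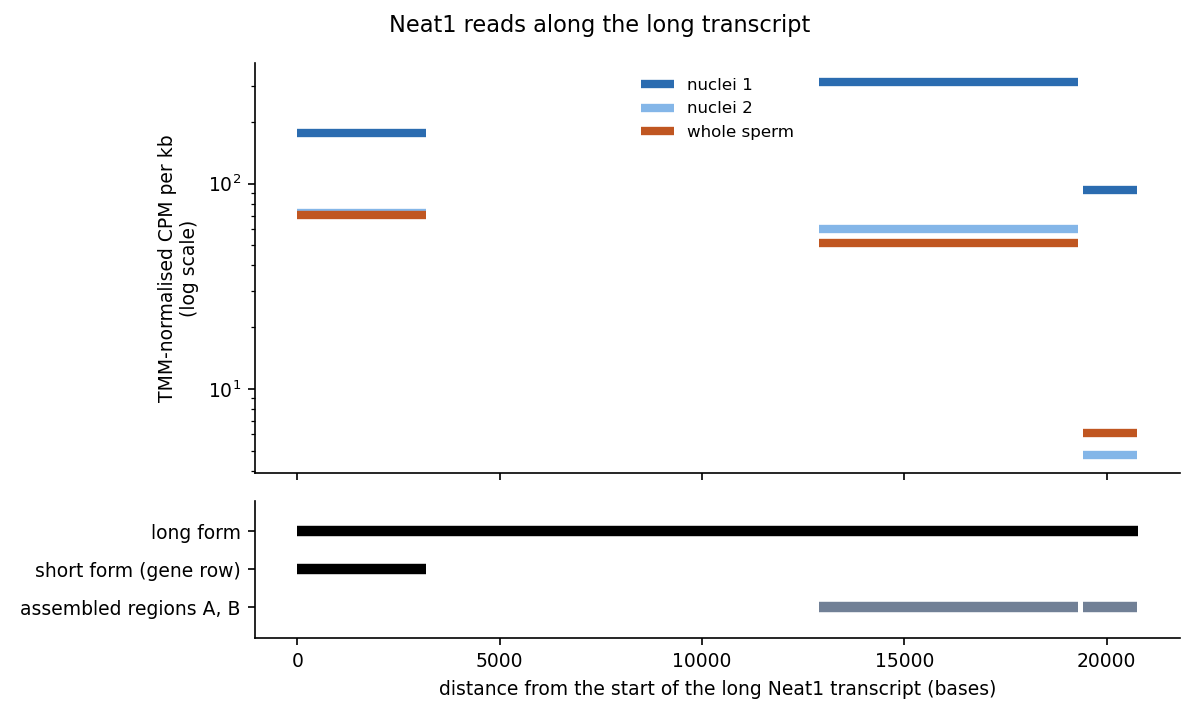
TMM-normalised CPM per kb (log axis) of the Neat1 gene row and of the 2 assembled regions, drawn at their distance in bases from the start of the long Neat1 transcript; each line is 1 library, and the models below show the long form, the short form and regions A and B. Nuclei 1 is highest over all 3 features, and in nuclei 2 and whole sperm region B lies far below the other features.

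Counts per kb showed how reads fell along the transcript within a library. Relative to the gene row, counts per kb in region A were 1.78 for nuclei 1, 0.837 for nuclei 2 and 0.735 for whole sperm. In region B, nearest the 3′ end, they were 0.531, 0.0666 and 0.0868. Only nuclei 1 had more reads per kb in region A than over the short form, and in every library region B had fewest. Reads of the long form also fall on the gene row, so these ratios are not ratios of the forms.

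The 2 regions held 80.2% (95% interval 79.5 to 80.8) of the counts of regions and row for nuclei 1, 64.4% (62.9 to 65.9) for nuclei 2 and 61.6% (60.2 to 63.0) for whole sperm. The gap between the nuclei libraries was wider than that between nuclei 2 and whole sperm.

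The balance of 2 RNAs inside 1 library does not depend on how libraries are scaled. The part of the Neat1 gene row in its sum with Malat1 counts was 25.3% (95% interval 24.5 to 26.1) for nuclei 1, 12.3% (11.7 to 12.9) for nuclei 2 and 3.28% (3.13 to 3.43) for whole sperm. Put the other way, there were 2.95, 7.12 and 29.5 Malat1 counts for each count of the Neat1 row. The nuclei libraries differed from each other beyond counting error, and whole sperm lay outside their range. With 1 whole-sperm library, this difference was not tested. The row leaves out regions A and B of the long form. Row and regions summed to 13970, 4041 and 4742 counts, against 8178, 10237 and 53685 for Malat1, so they exceeded Malat1 in nuclei 1 only.

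Tug1 held the same proportion to Malat1 in both nuclei libraries, within counting error, at 2.26% (1.95 to 2.60) and 2.35% (2.07 to 2.65) of their summed counts, against 0.959% (0.879 to 1.04) in whole sperm. 2900097C17Rik made up 24.1% (18.9 to 29.9) of its sum with Tug1 for nuclei 1, 3.15% (1.37 to 6.11) for nuclei 2 and 55.5% (52.6 to 58.4) for whole sperm. Malat1 alone took 72.7%, 85.7% and 94.7% of the counts of the 5 gene rows, with regions A and B left out. Together the 5 rows made up 0.205%, 0.180% and 0.681% of each library.

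**Figure D4:**
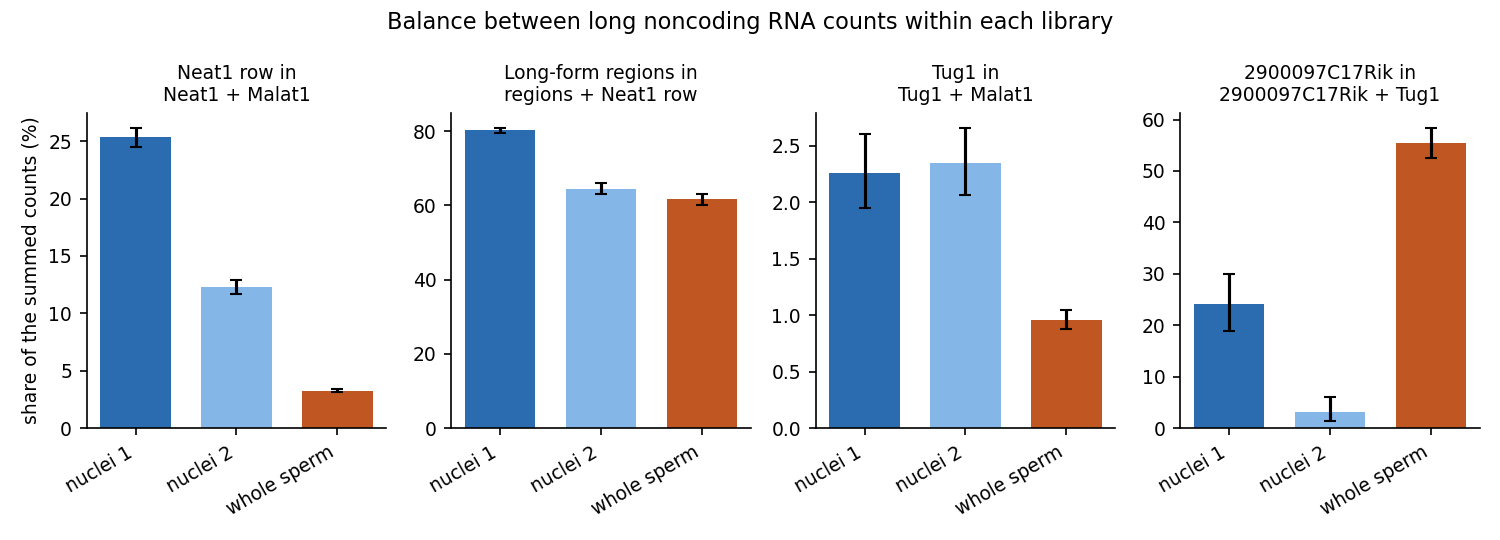
Share of the first RNA in the summed counts of each pair named above the panel, in percent, for nuclei 1, nuclei 2 and whole sperm; bars start at 0 and error bars are exact 95% intervals for counting error. The share of the Neat1 gene row against Malat1 is lowest in whole sperm (3.28%), and the nuclei bars agree within counting error only for Tug1 against Malat1.

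Tug1 had 189, 246 and 520 counts, or 36.1, 36.9 and 60.1 CPM. The nuclei values were again close together (36.5 ± 0.573 CPM, SD, n = 2), and whole sperm was 1.65-fold higher. The log2 fold change was -0.72 ± 1.04 (SE; edgeR adjusted p = 0.948), and RPKM values of 2.21, 2.96 and 6.47 gave -1.30 (limma adjusted p = 0.571). The standard error was larger than the difference in the count fit.

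For 2900097C17Rik, the Norad gene, the counts were 60 (nuclei 1), 8 (nuclei 2) and 648 (whole sperm), or 11.4, 1.20 and 74.8 CPM. Whole sperm was above both nuclei libraries, which lay far apart. It was 11.8-fold above the nuclei mean (6.32 ± 7.25 CPM), 6.54-fold above nuclei 1 and 62.4-fold above nuclei 2. The log2 fold change was -3.57 ± 1.32 (SE; edgeR adjusted p = 0.444), at -2.70 from nuclei 1 alone and -5.88 from nuclei 2 alone. Scaled by spike-ins it was -4.99 and passed (adjusted p = 0.00137), with 3.26% of all features called lower; in DESeq2 its adjusted p was 0.254.

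The Miat counts were 49 and 21 for the nuclei libraries and 0 for whole sperm, or 9.35, 3.15 and 0 CPM. Set against the 0.346 CPM that 3 counts would give in whole sperm, the nuclei mean was at least 18.0-fold higher, nuclei 1 alone at least 27.0-fold and nuclei 2 alone at least 9.09-fold, so the bound rests largely on nuclei 1. The adjusted p in edgeR was 0.909. By the same limit of 3 counts, a count of 0 allows a share of up to 3.61e-05% of whole-sperm counts. The RPKM table does not list Miat at 0 in whole sperm but at 0.0350, against 0.305 and 0.122 in nuclei, so the 2 deposited tables differ on whether it was detected. In RPKM the nuclei mean was 6.12-fold above whole sperm, which is less than the 18.0-fold limit from counts. The limits given above therefore hold for the count table alone.

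**Figure D5:**
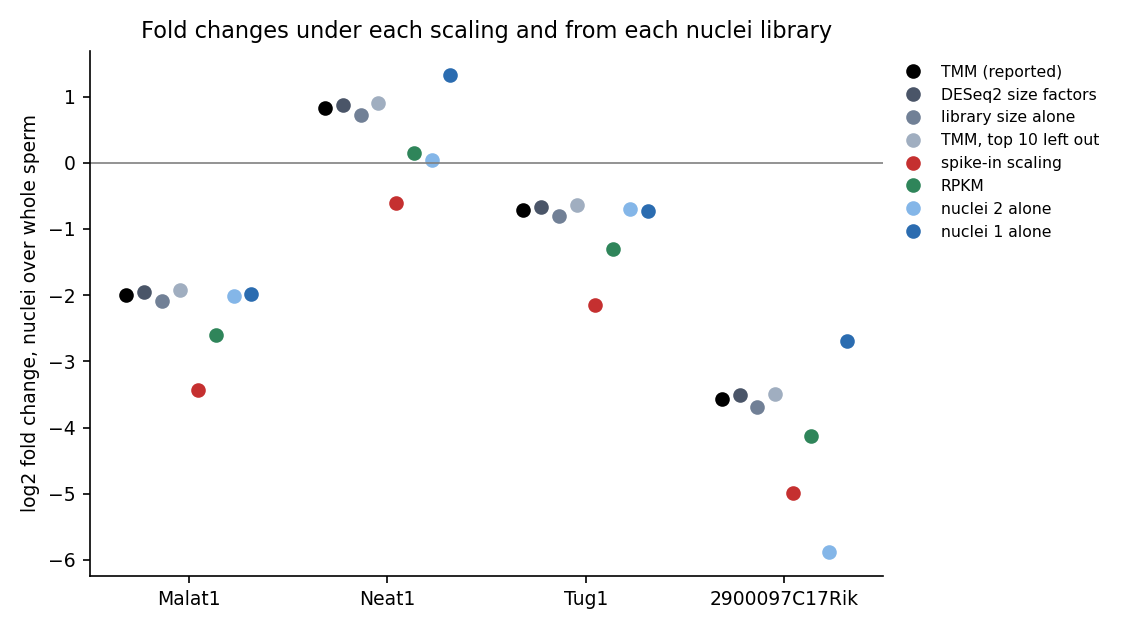
Log2 fold change of nuclei over whole sperm for 4 of the RNAs (Miat, at 0 counts in whole sperm, is left out), 1 point per scaling, test or nuclei library. Malat1, Tug1 and 2900097C17Rik stay below 0 at every point, while Neat1 runs from -0.60 under spike-in scaling to 1.33 from nuclei 1 alone.

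The deposited adjusted whole-sperm column holds what is left of each whole-sperm count once the average nuclei count is subtracted, with 0 as its lowest value. It kept 44478 of 53685 Malat1 counts (82.8%), 614 of 648 for 2900097C17Rik (94.8%), 303 of 520 for Tug1 (58.3%), and 0 of 1821 for Neat1. Over all genes and regions it kept 40.8%. It subtracts counts of libraries of different depth and adds no measurement.

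Proteins that work with these RNAs were represented by their mRNAs. In each of the 6 lists of partners and related RNAs, edgeR called 0 genes, and each median log2 fold change is to be read against 0.27 over all features. Of 27 paraspeckle protein genes tested, 17 were below 0 (median -0.30). Taf15 and Ewsr1, which encode RNA-binding proteins, were among the most abundant, at 262, 435 and 265 CPM and at 175, 131 and 72.99 CPM in nuclei 1, nuclei 2 and whole sperm. Ewsr1 was higher in both nuclei libraries than in whole sperm, and the nuclei values of Taf15 lay on either side of it.

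Of 26 nuclear speckle genes, 15 were below 0 (median -0.10). The splicing regulator Rbm25 was at 230, 398 and 277 CPM, the speckle core protein gene Srrm2 at 197, 114 and 384 CPM and Zc3h18, which links capped RNA to decay, at 136, 297 and 67.6 CPM. Srrm2 lay on the side of Malat1, higher in whole sperm, and Zc3h18 on the other.

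Of 20 factors of Malat1 processing and m6A, a methyl mark that Malat1 carries, 11 were below 0 (median -0.65). The nuclear m6A reader Ythdc1 was at 108, 215 and 136 CPM, Mettl16, a methyltransferase that binds the Malat1 triple helix, at 60.3, 53.5 and 24.0 CPM, and the m6A-switch reader Hnrnpc at 29.96, 48.7 and 41.3 CPM. Mettl16 was higher in both nuclei libraries, at log2 1.24 (edgeR adjusted p = 0.909).

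Of 10 Norad partners, 6 were below 0 (median -0.37). The Pumilio gene Pum2 was at 68.9, 50.97 and 78.2 CPM, and Khdrbs1, which encodes the RNA-binding protein Sam68, at 32.6, 16.6 and 53.2 CPM. Of 14 Miat and Tug1 partners, 6 were below 0 (median 0.09). Sf1, the branch-point binder, was at 242, 357 and 256 CPM, the splicing regulator Celf3 at 193, 399 and 125 CPM, and the Polycomb cofactor Jarid2 at 125, 146 and 122 CPM.

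Of the 19 other nuclear long noncoding RNAs tested, 10 were below 0 and 9 above (median -0.05). The imprinting RNA Kcnq1ot1 was at 1469, 526 and 300 CPM, the snoRNA host Snhg11 at 582, 238 and 93.7 CPM and Jpx, an activator of Xist, at 100.2, 36.9 and 9.12 CPM. In all 3, as in Neat1, nuclei 1 was the highest library, and both nuclei libraries were above whole sperm; their edgeR adjusted p-values were 0.768, 0.471 and 0.560. Xist, the X-inactivation RNA, had counts of 15, 0 and 0. The listed RNAs summed to 0.215%, 0.0944% and 0.0575% of counts.

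Genes beside the 5 loci did not pass either. Next to the Malat1 and Neat1 pair, Frmd8 had 229, 131 and 88 counts. Beside Tug1, Smtn had 202, 407 and 175 counts and Morc2a, on the opposite strand, had 662, 1075 and 293. In CPM both were higher in nuclei, whereas Tug1 was higher in whole sperm. Beside Miat, 1700028D13Rik had 12, 0 and 9 counts and Cryba4 0, 0 and 37. Beside 2900097C17Rik, Cnbd2 had 854, 1049 and 531 counts and Epb4.1l1 had 59, 9 and 159, so the latter, like 2900097C17Rik, was lowest in nuclei 2 and highest in whole sperm.

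Genes with the most similar pattern were sought among 4217 with a mean of at least 20 CPM, by the distance of log2(CPM + 1) centred on each gene's mean over the 3 libraries. For Malat1 they were Lman2 (distance 0.08; 27.7, 25.2 and 108 CPM), Acbd7 (0.08), Numa1 (0.09), Usp9x (0.09; 53.2, 52.0 and 231 CPM) and Akap13 (0.10). For Neat1 they were Rbm28 (0.02; 114, 46.8 and 44.9 CPM), Dgka (0.03), Mob1b (0.07), Htt (0.09) and Rpl15 (0.09; 135, 50.8 and 49.2 CPM). With 3 libraries a near match describes only the order and spacing of 3 values.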

How the data were processed

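The count columns hold whole-number read counts per gene or assembled region, deposited by the authors without normalization. RPKM values, 1 column per preparation, were also deposited by the authors. The authors also deposited an adjusted whole-sperm column, treated here as a score. The submitters' processing notes name build mm10 and the tools TopHat2 2.0.12, HTSeq, Cufflinks 2.1.1, DESeq2, bedtools, CASAVA 1.8.2 and SAMtools 0.1.19, with no role for any of them. ERCC spike-ins stayed out of library sizes, as did the whole-sperm reads outside features or ambiguous (36.4% of that table).

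The test was edgeR 4.0.16 (R 4.3.3; quasi-likelihood, TMM, filterByExpr), with 1 residual degree of freedom; its spread is pooled over features, and whole sperm, with 1 library, is assumed to vary as nuclei do. Standard errors were derived from the F statistic. All 5 genes passed the filter on low counts. RPKM was tested with limma 3.58.1 on log2(RPKM + 0.1), which understates changes of low genes. Levels in the text are TMM-normalised CPM unless another unit is named. Scripts were tested on simulated data. Alternatives were spike-in scaling (23 shared spike-ins), DESeq2's size factors, no scaling factor beyond library size, TMM without the 10 most abundant features, other filters, DESeq2 1.42.0, RPKM settings and each nuclei library alone.

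Named besides the 5 genes are their nearest neighbours with a count row, the 3 most abundant members of each list, list genes with adjusted p under 0.05, and the 5 genes nearest in pattern to Malat1 and to Neat1; 3 genes that this rule takes are not reported here. The members and lists were chosen with earlier results of these data known.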

Additional observations from a re-analysis of the deposited data

How the results depend on the processing

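Of 50 alternatives to the fold changes of the 5 genes, 44 left direction and call in place or moved a value by less than the spread between nuclei. The exceptions were Malat1 at log2 -3.44 (adjusted p = 0.000422) and 2900097C17Rik at -4.99 (adjusted p = 0.00137), which passed in edgeR under spike-in scaling, Malat1 at -1.96, which passed in DESeq2 (adjusted p = 0.00636), Neat1, which turned to -0.60 under spike-in scaling, and 2 values from nuclei 2 alone. The 44 do not measure how stable the sizes were. Where a test was left, only direction and call were compared, so Miat at 1.15 in RPKM counted as unchanged from 8.42. For 1 nuclei library alone, the limit came from the spread of the same 2 libraries, so most values were bound to stay within it. Neat1 at 0.03, against 0.82 in the main fit, was among them. From a single nuclei library the log2 fold change ran from -2.01 to -1.99 for Malat1, 0.03 to 1.33 for Neat1, -0.73 to -0.70 for Tug1, 5.80 to 7.35 for Miat and -5.88 to -2.70 for 2900097C17Rik; 5.80 and -5.88 came from nuclei 2. Miat had 0 counts in whole sperm, so its values of 5.80, 7.35 and 8.42 depend on a small added count and measure no size. The region nearest the Neat1 3′ end (B) ran from -0.34 (nuclei 2) to 3.94. For all of these the cause was not tested.

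Genes higher in nuclei numbered 4 in edgeR, 2 with library size alone, 1 under spike-in scaling, 97 in DESeq2, 0 at a mean of at least 10 CPM (346 unadjusted) and 0 in limma on RPKM (115 unadjusted). Genes lower numbered 16, and 527 under spike-in scaling, 33 in DESeq2, 0 at a mean of at least 10 CPM (269 unadjusted) and 0 in limma on RPKM (2034 unadjusted). No gene passed in limma under any RPKM setting. Miat was not tested at a mean of at least 10 CPM. Counts of genes have no value with 1 nuclei library left out, since no test is left. No paired analysis was possible because whole sperm has 1 preparation and the groups compared share fewer than 2 replicate numbers. List medians were the same with genes at 0 in a group set to the 3-count limit.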

Other observations

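Of 10 listed genes of RNase P subunits, singled out after their values were seen, 6 had their highest CPM in whole sperm (Rpp21, Pop1, Rpp38, Rpp40, Rpp14 and Pop4) and 4 in a nuclei library (Pop7, Pop5, Rpp25 and Rpp30). For nuclei 1, nuclei 2 and whole sperm, the counts of Pop1 were 0, 0 and 81, those of Rpp14 were 0, 0 and 60, and those of Rpp38 were 1, 0 and 74. Rpp25 had 22, 0 and 0 counts, Rpp30 had 21, 0 and 1, and Pop7 had 19, 37 and 8. None of the subunit genes given with counts passed edgeR's test (adjusted p of 0.909 or above). The m6A demethylase gene Alkbh5, also named after its values were seen, resembled Malat1 in being even between nuclei libraries and higher in whole sperm, at 5.92, 5.85 and 48.5 CPM (log2 -3.04, edgeR adjusted p = 0.909).

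Of the paraspeckle genes, Sfpq, a core protein needed for paraspeckles, was at 47.5, 24.3 and 106 CPM, and its partner Nono at 43.3, 10.9 and 48.6 CPM. Both were named after their values were seen. For both, as for Neat1, nuclei 1 was above nuclei 2, but whole sperm was the highest library.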
